A study of Mus musculus with 4 samples.

Results

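Transcripts of 10 genes that build the chondroitin sulfate proteoglycan matrix and the perineuronal nets were followed at the lesion site after spinal cord injury (SCI). The genes were taken by name from a list: VCAN, NCAN, BCAN, ACAN, CSPG4, CSPG5, PTPRZ1, HAPLN1, HAPLN2 and TNR. All 10 were among the 14123 genes listed at 7 days post injury (dpi), and 9 were among the 11470 listed at 21 dpi, where HAPLN2 was not listed. The animals were male mice aged 3 to 5 months in which the mouse ApoE gene was replaced by the human ApoE3 or the human ApoE4 sequence. All of them had a 50 kdyne contusion of the mid-thoracic cord under isoflurane, and RNA was taken from a segment of a few millimetres around the lesion. The 4 groups were ApoE3 and ApoE4 at 7 dpi and ApoE3 and ApoE4 at 21 dpi, and uninjured cord was not analysed here. By the methods, each group had 3 mice, but the deposited levels are 1 per gene and group. The spread between mice cannot be taken from them, so no test was made here, and no difference below has a replicate check. The p-values that the authors deposited beside the levels were not used.

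Chondroitin sulfate proteoglycans are core proteins that carry long sulfated sugar chains. The lecticans among them bind hyaluronan at their N-terminal end and tenascins at their C-terminal end, link proteins lock the bond to hyaluronan, and tenascin-R joins neighbouring lecticans, so that a mesh forms in the space between cells. The mesh is densest in perineuronal nets, the coats around the cell bodies of certain neurons, and after injury of the cord chondroitin sulfate proteoglycans accumulate around the lesion, where they are known to hinder axon growth.

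Levels are FPKM, fragments per kilobase of transcript scaled to sequencing depth, which can be compared between genes because they are given per length. The number of reads behind a value is unknown. Ratios are log2((FPKM + 1)/(FPKM + 1)), ApoE3 over ApoE4 or 21 over 7 dpi, and they understate changes where levels are low. A gene was counted as called when its ratio passed a 1.3-fold difference, which is 0.38 on the log2 scale. The table names each comparison as ApoE3 versus ApoE4, while its numbering of the columns would pair the values with the genotypes the other way round. The naming was followed. Under the other reading each difference between genotypes would point the opposite way, and each change over time would belong to the other genotype. Under the naming followed, 58.9% of all genes were called higher in ApoE4 at 21 dpi and 2.01% higher in ApoE3. The paper also reports more genes significantly higher in ApoE4 than in ApoE3 at the later time point. That report draws on the same sequencing, and which naming is right was not tested. The values at 7 and at 21 dpi come from separately made comparisons, so changes over time set levels of separate calculations side by side. Among genes averaging 1 FPKM or more, the median ratio of ApoE3 to ApoE4 was 0.0018 at 7 dpi and -0.42 at 21 dpi, and the median ratio of 21 to 7 dpi was 0.09 in ApoE3 and 0.53 in ApoE4. A centred ratio is the ratio minus this median.

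BCAN, brevican, the lectican of adult astrocytes and oligodendrocyte lineage cells, had the highest level of the genes in each group. Its FPKM was 549 in ApoE3 and 606 in ApoE4 at 7 dpi, and 925 in ApoE3 and 1193 in ApoE4 at 21 dpi. At 7 dpi TNR was next in both genotypes, with 225 FPKM in ApoE3 and 224 in ApoE4, then PTPRZ1, HAPLN2 and VCAN between 155 and 196 FPKM, with HAPLN2 just above PTPRZ1 in ApoE4. CSPG5, NCAN, CSPG4 and ACAN followed in that order in both genotypes, and HAPLN1 was lowest, with 2.81 FPKM in ApoE3 and 2.39 in ApoE4. Among the 9 genes listed at 21 dpi the order was the same in both genotypes: BCAN, CSPG5, PTPRZ1, TNR, VCAN, NCAN, CSPG4, ACAN and HAPLN1. Among these same 9 genes CSPG5 was in place 5 at 7 dpi and in place 2 at 21 dpi, in both genotypes. Without replicates it cannot be said which neighbours in these orders differ by more than the spread between mice.

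**Figure D1:**
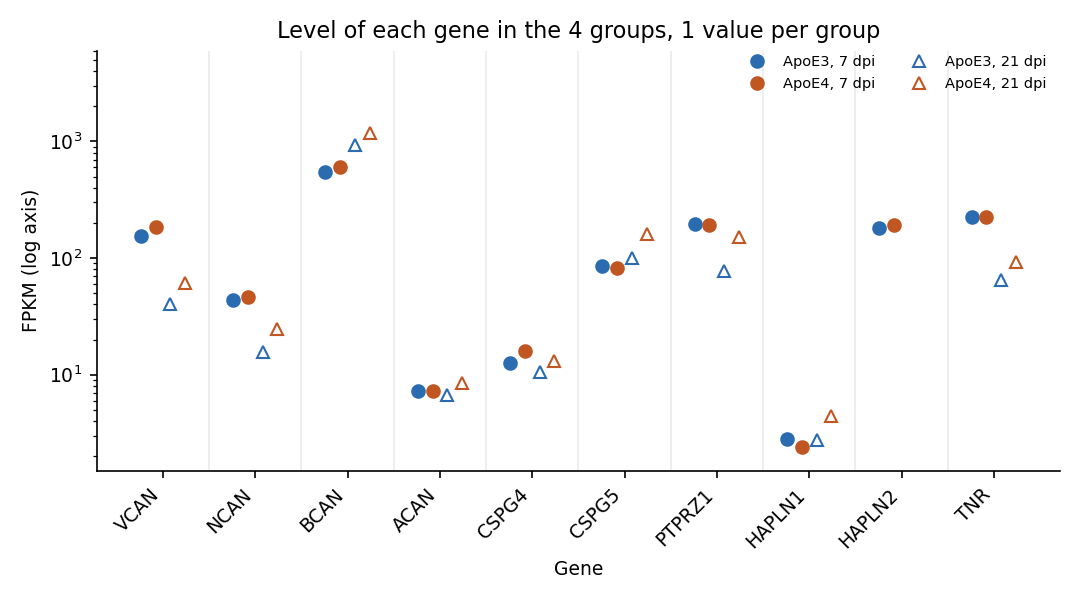
FPKM of the 10 genes (log axis) in ApoE3 (blue) and ApoE4 (orange) at 7 dpi (filled circles) and 21 dpi (open triangles), 1 value per group. BCAN is highest in each group, VCAN, NCAN and TNR lie lower at 21 than at 7 dpi in both genotypes, and HAPLN2 has no value at 21 dpi.

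The promoters of 4 of the genes are shown because they alone were called in the same direction in both genotypes with and without centring: VCAN, NCAN and TNR fell from 7 to 21 dpi in both genotypes and BCAN rose, as given below. The sequences are the 250 bases before the start in RefSeq, build GRCm38.p6, 5′ to 3′ in the direction of transcription, and 9 of the 10 genes had an entry. Capitals mark matches on either strand to the TATA box letters TATAAA, the GC box letters GGGCGG, the CAAT box letters CCAAT, the E-box letters CACGTG and the letters ACAAT found in SOX sites.
VCAN, chr13:89742513-89742762, - strand: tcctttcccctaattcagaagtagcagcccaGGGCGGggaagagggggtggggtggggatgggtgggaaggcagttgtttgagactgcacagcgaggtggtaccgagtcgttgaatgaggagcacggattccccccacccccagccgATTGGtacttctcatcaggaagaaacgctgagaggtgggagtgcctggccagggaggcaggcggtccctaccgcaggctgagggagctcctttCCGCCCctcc
NCAN, chr8:70120845-70121094, - strand: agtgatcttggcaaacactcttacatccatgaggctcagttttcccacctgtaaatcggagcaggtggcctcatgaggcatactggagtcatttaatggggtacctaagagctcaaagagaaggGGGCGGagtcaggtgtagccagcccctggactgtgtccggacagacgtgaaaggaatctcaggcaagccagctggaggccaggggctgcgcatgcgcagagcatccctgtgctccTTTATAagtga
TNR, chr1:159523519-159523768, + strand: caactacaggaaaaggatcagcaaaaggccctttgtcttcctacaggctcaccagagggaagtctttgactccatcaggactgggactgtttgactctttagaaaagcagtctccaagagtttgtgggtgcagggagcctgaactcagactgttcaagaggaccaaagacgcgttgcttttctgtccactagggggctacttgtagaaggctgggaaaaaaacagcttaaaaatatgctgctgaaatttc
BCAN, chr3:88000357-88000606, - strand: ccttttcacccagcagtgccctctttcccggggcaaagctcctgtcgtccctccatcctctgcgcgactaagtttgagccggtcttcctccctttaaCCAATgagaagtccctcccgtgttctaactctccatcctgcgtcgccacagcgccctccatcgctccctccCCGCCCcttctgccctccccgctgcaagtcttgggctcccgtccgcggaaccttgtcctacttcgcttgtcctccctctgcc
GGGCGG was found in 6 of the 9 promoters and in 32.7% of all 32851 promoters in windows of this length. VCAN held 2 matches to it, and NCAN and BCAN 1 each. CCAAT was found in 4 of the 9 and in 33.8% of all, with VCAN and BCAN among the 4. TATAAA was found in NCAN alone among the 9 and in 12.4% of all, ACAAT in 3 of the 9 and in 27.7% of all, and CACGTG in 0 of the 9 and in 6.02% of all. The window of TNR held none of the 5 motifs and had a GC content of 46.8%, against 62.4% in VCAN, 62.0% in BCAN, 54.4% in NCAN and a median of 52.4% over all promoters. No motif was common to VCAN, NCAN and TNR. PTPRZ1, which was called lower in ApoE3 and, after centring, also in ApoE4, held 2 matches to GGGCGG and 0 to the other motifs, and VCAN and BCAN, which moved in opposite directions, shared both GGGCGG and CCAAT. A match is a description of the letters and not evidence of a bound factor.

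The comparison of genotypes at 7 dpi asked which of these genes differed between ApoE3 and ApoE4 lesions while recovery begins. None of the 10 genes was called in either direction. Of all genes 3.78% were called higher in ApoE3 and 4.76% higher in ApoE4, so the count of 0 was near these shares. The ratios lay between -0.30 and 0.17, 5 above and 5 below 0, with a median of -0.03 over the 10 genes and of 0.0020 over all genes. The ratio furthest from 0 was that of CSPG4, the NG2 proteoglycan in the membrane of oligodendrocyte precursors and pericytes, with 12.7 FPKM in ApoE3 and 15.8 in ApoE4. VCAN, the large lectican versican, was next with a ratio of -0.24, from 155 FPKM in ApoE3 and 183 in ApoE4. TNR, with a ratio of 0.0031, and ACAN, with 0.01, were almost level between genotypes.

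At 21 dpi 6 of 9 genes were called higher in ApoE4, where 58.9% of all genes were, and 0 higher in ApoE3, where 2.01% were. The 6 were VCAN, NCAN, CSPG5, PTPRZ1, HAPLN1 and TNR, and BCAN, with a ratio of -0.37, lay just short of the fold. The median ratio was -0.53 over the 9 genes and -0.42 over all genes, of which 93.8% had a ratio below 0. Relative to the shift of all genes, 1 of 9 was called higher in ApoE4 and 0 higher in ApoE3, and of all genes 8.06% and 7.46%. Both counts of members were thus near the share of all genes.
The gene called after centring was PTPRZ1, a receptor tyrosine phosphatase whose secreted form is the proteoglycan phosphacan. Its FPKM was 196 in ApoE3 and 190.4 in ApoE4 at 7 dpi, and 78.0 in ApoE3 and 153 in ApoE4 at 21 dpi. Both genotypes were level at 7 dpi, and ApoE3 was lower than ApoE4 at 21 dpi, with a ratio of -0.96 and a centred ratio of -0.54. Of all genes at 21 dpi, 4.31% had a lower ratio than PTPRZ1. The table gives 1 value per gene, so the receptor and the secreted splice form cannot be told apart, and likewise for the forms of VCAN.
CSPG5, neuroglycan C, a membrane proteoglycan of neurons and glia, had a level at 21 dpi of 101 FPKM in ApoE3 and 160.3 in ApoE4, with a centred ratio of -0.24. Those of NCAN and VCAN were -0.20 and -0.15, and those of TNR and HAPLN1 were -0.10 each. The remaining 3 ratios turned positive on centring, from -0.37 to 0.06 for BCAN, from -0.30 to 0.13 for ACAN and from -0.30 to 0.12 for CSPG4.

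**Figure D2:**
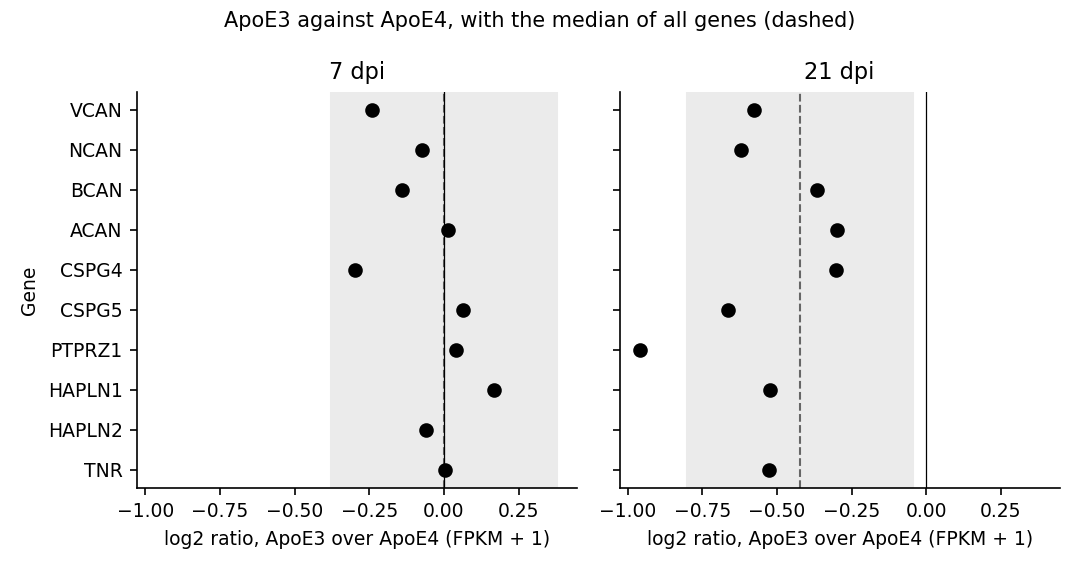
log2 ratio of ApoE3 over ApoE4 for each gene (black points) at 7 dpi (left) and 21 dpi (right), with the median of genes averaging 1 FPKM or more (dashed line) and the range within 1.3-fold of that median (grey). All points lie in the grey range except PTPRZ1 at 21 dpi, and at 21 dpi BCAN, ACAN and CSPG4 lie below 0 but above the dashed line.

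From 7 to 21 dpi in ApoE3, 4 of 9 genes were called lower at 21 dpi and 1 higher, and 23.6% of all genes were called lower and 31.3% higher. In ApoE4, 3 of 9 were called lower and 3 higher, and 10.9% of all genes were called lower and 59.0% higher. Centred on all genes, 4 of 9 were lower and 1 higher in ApoE3, against 27.7% and 26.6% of all genes, and 5 of 9 were lower and 2 higher in ApoE4, against 28.6% and 26.1%. The median ratio over the 9 genes was -0.25 in both genotypes, while that of all genes was 0.09 in ApoE3 and 0.53 in ApoE4.

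VCAN, which binds hyaluronan in provisional and embryonic matrix and at nodes of Ranvier, fell from 155 to 40.5 FPKM in ApoE3 and from 183 to 60.9 in ApoE4. Its ratio was -1.91 in ApoE3 and -1.58 in ApoE4, and -1.998 and -2.102 after centring. Only 1.55% of all genes had a lower ratio in ApoE3 and 1.82% in ApoE4. NCAN, neurocan, a lectican secreted by astrocytes and neurons of the developing and injured nervous system, fell from 43.6 to 15.7 FPKM in ApoE3 and from 45.9 to 24.6 in ApoE4. Its centred ratio was -1.51 in ApoE3 and -1.40 in ApoE4. TNR, the tenascin of oligodendrocytes and certain neurons that crosslinks lecticans in perineuronal nets, fell from 225 to 64.4 FPKM in ApoE3 and from 224 to 93.3 in ApoE4. Its centred ratio was -1.88 in ApoE3 and -1.78 in ApoE4. These 3 genes were called lower in both genotypes, with and without centring.
BCAN was called higher in both genotypes, also with and without centring. Its ratio was 0.75 in ApoE3 and 0.98 in ApoE4, and 0.66 and 0.45 after centring.
ACAN, aggrecan, the lectican most closely tied to perineuronal nets, had between 6.72 and 8.49 FPKM in the 4 groups and was not called. Its ratio was -0.11 in ApoE3 and 0.21 in ApoE4, the latter turning to -0.32 on centring.

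Among the membrane proteoglycans, PTPRZ1 fell by 1.32 on the log2 scale in ApoE3. Its ratio in ApoE4 was -0.32, short of the fold, and -0.84 after centring. CSPG5 had 85.4 FPKM at 7 dpi and 101 at 21 dpi in ApoE3, short of the fold, and rose from 81.6 to 160.3 FPKM in ApoE4, with a ratio of 0.97 and a centred ratio of 0.44. CSPG4 had between 10.5 and 15.8 FPKM in the 4 groups and a ratio of -0.25 in both genotypes, with a centred ratio of -0.34 in ApoE3 and of -0.77 in ApoE4, which passed the fold.
HAPLN1, a link protein of perineuronal nets, had 2.81 FPKM at 7 dpi and 2.75 at 21 dpi in ApoE3, and 2.39 and 4.39 in ApoE4. The ratio in ApoE4, 0.67, was called, but it was 0.14 after centring. HAPLN2, the link protein at nodes of Ranvier in the central nervous system, had a level at 7 dpi of 183 FPKM in ApoE3 and 191 in ApoE4. That it was not listed at 21 dpi says nothing of its level there. The list is shorter at 21 dpi, and some other genes well above 0 at 7 dpi have no row there either.

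The makeup of the lecticans within a group does not depend on a scaling between groups that is the same for all genes. A shift between time points that goes with transcript length, as given below, does not cancel in it. BCAN made up 72.7% of the summed FPKM of VCAN, NCAN, BCAN and ACAN in ApoE3 and 71.9% in ApoE4 at 7 dpi, and 93.6% and 92.7% at 21 dpi. BCAN is the shortest of the 4, and with FPKM multiplied by transcript length its share was 42.9% and 41.7% at 7 dpi and 81.4% and 79.0% at 21 dpi. VCAN went from 20.5% to 4.10% in ApoE3 and from 21.8% to 4.73% in ApoE4. NCAN went from 5.78% to 1.59% and from 5.45% to 1.91%, and ACAN from 0.969% to 0.680% and from 0.858% to 0.660%. BCAN was 3.54 times VCAN in ApoE3 and 3.30 times in ApoE4 at 7 dpi, and 22.8 times and 19.6 times at 21 dpi. BCAN was 2.44 times TNR in ApoE3 and 2.70 times in ApoE4 at 7 dpi, and 14.4 times and 12.8 times at 21 dpi. The time points stood far apart on these measures and the genotypes close together, but the shares show unequal change and not that any gene stayed the same. The summed FPKM of the 4 lecticans was 755 in ApoE3 and 843 in ApoE4 at 7 dpi, and 988 and 1287 at 21 dpi.

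**Figure D3:**
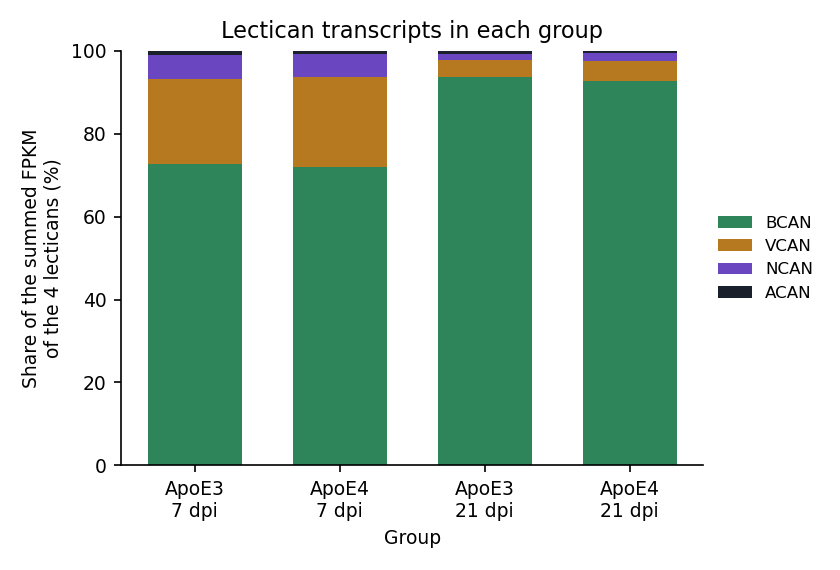
Share of each lectican in the summed FPKM of the 4, stacked for each group, with BCAN in green, VCAN in brown, NCAN in purple and ACAN in black. By FPKM, without weighting by transcript length, BCAN takes 72.7% and 71.9% at 7 dpi and 93.6% and 92.7% at 21 dpi, and VCAN narrows from 20.5% and 21.8% to 4.10% and 4.73%.

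Transcript length moved with the change over time. Across 10336 genes averaging 1 FPKM or more that have a length in the mouse annotation, the ratio of 21 to 7 dpi had a Spearman correlation of -0.39 with length in ApoE3, and across 10348 genes of -0.33 in ApoE4. Genes are not independent replicates, and they share the same pools of RNA. The genes described here are long apart from BCAN, with 3141 bases, and HAPLN2, with 1711. VCAN has 12427 bases and TNR 12202, and 7 of the 9 genes listed at both time points belong to the longest of 10 equal length classes of the expressed genes.
The median ratio of that class was -0.32 in ApoE3 and 0.20 in ApoE4, and that of the class holding BCAN was 0.13 and 0.54. Relative to genes of like length, VCAN had a ratio of -1.59 in ApoE3 and -1.78 in ApoE4, TNR -1.47 and -1.46, and NCAN -1.10 and -1.08. BCAN kept 0.62 and 0.44 on this scale, so these 4 genes were called in the same direction as before in both genotypes. PTPRZ1 was called lower in both, with -0.52 in ApoE4 and a larger change in ApoE3, and CSPG5 higher in both, with 0.56 and 0.76. CSPG4 was at 0.06 in ApoE3, where its sign turned, and at -0.45 in ApoE4, where it passed the fold. HAPLN1 also turned positive in ApoE3, at 0.17, and at 0.39 in ApoE4 it passed the fold, while ACAN was at 0.21 and 0.0041 and was not called. By this measure 4 of 9 genes were lower and 2 higher in ApoE3, against 24.9% and 21.9% of all genes, and 5 of 9 were lower and 3 higher in ApoE4, against 26.3% and 24.0%.

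**Figure D4:**
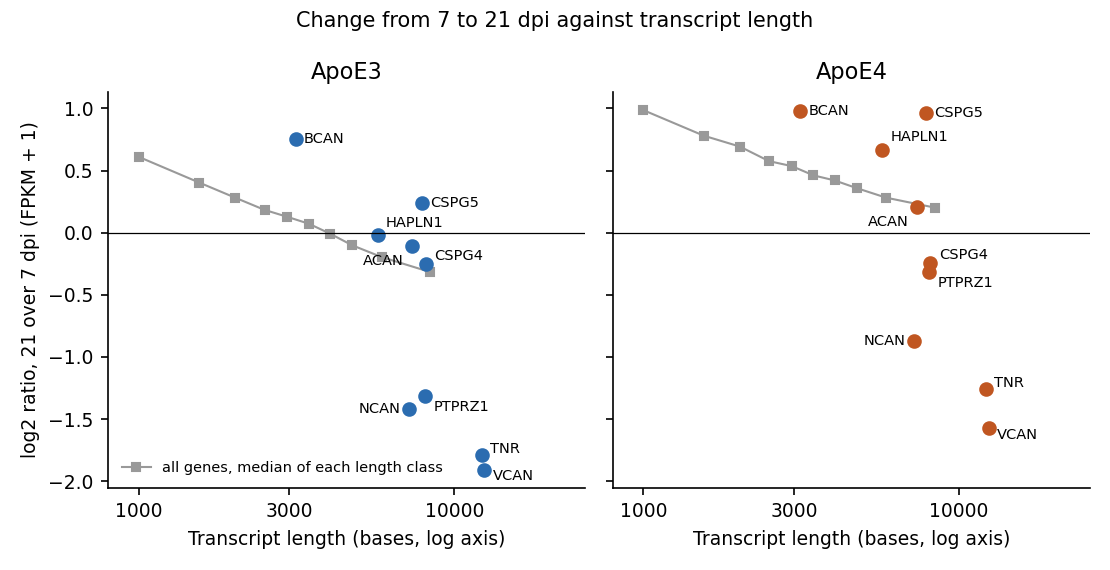
log2 ratio of 21 over 7 dpi against transcript length (log axis) for the 9 genes listed at both time points (labelled points), in ApoE3 (left) and ApoE4 (right), with the median of all expressed genes in each of 10 length classes (grey squares). The grey line falls with length, VCAN, NCAN and TNR lie far below it in both genotypes, BCAN and CSPG5 lie above it, and CSPG4 lies just above it in ApoE3 and below it in ApoE4.

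Each lectican gene lies beside a link protein gene in the mouse genome, with 0 protein-coding genes between VCAN and HAPLN1, BCAN and HAPLN2, ACAN and HAPLN3, or NCAN and HAPLN4 in RefSeq. VCAN fell in both genotypes, while HAPLN1 was not called lower in either. NCAN fell in both, whereas HAPLN4, the link protein that partners brevican at certain synapses, rose from 29.2 to 47.8 FPKM in ApoE3 and from 26.0 to 63.7 in ApoE4, also after centring. HAPLN4 was thus 0.670 times NCAN in ApoE3 and 0.566 times in ApoE4 at 7 dpi, and 3.05 and 2.59 times at 21 dpi. Beside ACAN, which differed little between groups, HAPLN3 had a level at 21 dpi of 1.13 FPKM in ApoE3 and 5.52 in ApoE4, with a centred ratio of -1.19.
TNC, the tenascin of developing and injured tissue, was called higher in ApoE4 at 7 dpi, with 55.2 FPKM in ApoE3 and 96.6 in ApoE4, where TNR was level. By 21 dpi TNC had fallen to 12.01 and 17.4 FPKM, so that TNC and TNR both fell. TNR was 4.07 times TNC in ApoE3 and 2.32 times in ApoE4 at 7 dpi and 5.36 times in both at 21 dpi. Another listed tenascin, TNXB, rose from 9.41 to 14.6 FPKM in ApoE3 and from 8.15 to 11.2 in ApoE4. Both rises passed the fold, and after centring only that in ApoE3 did.

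Enzymes that build and sulfate the chains of these core proteins, and other genes around the mesh, were counted in the same way. At 7 dpi 0 of 13 genes for chondroitin sulfate chain synthesis, 0 of 7 sulfotransferases and 0 of 6 ADAMTS proteases that cleave lecticans were called. Of receptors for chondroitin sulfate proteoglycans, counted with relatives and partners of such receptors, 0 of 6 were called. Of the partners of net-bearing neurons 0 of 10 were. Of all genes 3.78% were called higher in ApoE3 and 4.76% higher in ApoE4. At 21 dpi the counts depended on centring, before which 58.9% of all genes were higher in ApoE4 and 2.01% higher in ApoE3, and after which 8.06% and 7.46% were. Of the chain synthesis genes 5 of 12 were higher in ApoE4 before centring and 1 after it, DSEL (ApoE3 5.06 and ApoE4 9.63 FPKM). Of the sulfotransferases 1 of 3 was, before and after, CHST7, with 1.69 and 4.51 FPKM. Of 6 ADAMTS proteases 2 were higher in ApoE4 before centring, ADAMTS1, with 4.70 and 7.76 FPKM, and ADAMTS9, with 5.09 and 7.22, and 1 higher in ApoE3, ADAMTS15, with 3.02 and 1.67, whereas after centring 0 were higher in ApoE4 and 3 higher in ApoE3. Of 5 genes of the receptor list 1 was higher in ApoE4, TNFRSF19, with 24.5 and 37.5 FPKM. In ApoE3 1 was higher, RTN4RL2, with 7.22 and 4.23 FPKM, and after centring 0 were higher in ApoE4 and 2 in ApoE3. Whether TNFRSF19 and RTN4RL2 bind the proteoglycans themselves was not tested. From 7 to 21 dpi in ApoE3, 6 of 12 chain synthesis genes were lower and 1 higher, with and without centring, against 23.6% and 31.3% of all genes before it and 27.7% and 26.6% after it. In ApoE4 4 were lower and 2 higher before centring, against 10.9% and 59.0% of all genes, and 7 lower and 1 higher after it, against 28.6% and 26.1%. Beside the same shares, 2 of 8 partners of net-bearing neurons were lower and 5 higher in ApoE3, and 3 and 3 after centring. In ApoE4 0 of these partners were lower and 7 higher, and 1 and 5 after centring.
Among the genes of hyaluronan, which the lecticans bind, 2 of 11 were higher in ApoE4 at 7 dpi, STAB1, a scavenger receptor of macrophages, with 329 and 559 FPKM, and HMMR, with 9.79 and 13.5, and 1 was higher in ApoE3, ITIH3, with 252 and 184, beside the shares of all genes given above. At 21 dpi 2 of 8 were higher in ApoE4 and 0 higher in ApoE3, and after centring 0 and 1 were. Of the small leucine-rich and other chondroitin or dermatan sulfate proteoglycans 3 of 12 were higher in ApoE4 at 7 dpi and 0 higher in ApoE3. At 21 dpi 5 of 8 were higher in ApoE4, among them SPOCK3, with 76.2 and 129 FPKM, and 2 higher in ApoE3, of which decorin, DCN, had 61.9 and 9.37, and after centring 0 and 2 were. Of the partners of net-bearing neurons 3 of 8 were higher in ApoE4 at 21 dpi and 0 higher in ApoE3, and after centring 2 were, SEMA3A, with 11.99 and 26.2 FPKM, and CNTN1, with 207 and 367.

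Several cell types make these proteins, and in a bulk segment fewer cells of a type and less RNA per cell cannot be told apart. Of 12 markers of oligodendrocyte precursors, which express VCAN, CSPG4, PTPRZ1 and BCAN, 11 were listed at both time points. Their summed FPKM was 831 in ApoE3 and 938 in ApoE4 at 7 dpi and 547 and 805 at 21 dpi. SOX6 was the most abundant at 7 dpi and OLIG1 at 21 dpi, and without SOX6 the sum was 509 and 574 at 7 dpi and 432 and 612 at 21 dpi, which turns its direction in ApoE4. In ApoE3 5 of 11 were lower at 21 dpi and 0 higher, with and without centring, and in ApoE4 4 were lower and 5 higher before centring and 6 lower and 0 higher after it. Of all genes 23.6% were lower and 31.3% higher in ApoE3 and 10.9% and 59.0% in ApoE4, and after centring 27.7% and 26.6%, and 28.6% and 26.1%.
The summed FPKM of 11 of 12 astrocyte markers, with GFAP the most abundant, was 18447 in ApoE3 and 17951 in ApoE4 at 7 dpi and 11991 and 21655 at 21 dpi. At 21 dpi 12 of 12 astrocyte markers were lower in ApoE3 before centring and 2 after it, among them GFAP, with 8201 and 15313 FPKM and a centred ratio of -0.48, and the median centred ratio of the list was -0.24. Of the macrophage and microglia markers 8 of 8 were lower in ApoE3 at 21 dpi before centring and 5 after it, with a median centred ratio of -0.51. Of the precursor markers 8 of 11 were, of the oligodendrocyte markers 10 of 10 and of the neuron markers 8 of 10, and after centring 1 of each, against 58.9% of all genes before centring and 8.06% after it. Of 10 fibroblast markers 3 were higher and 2 lower in ApoE3 at 21 dpi, and 5 and 0 after centring, and of 9 pericyte and mural cell markers 0 were higher and 4 lower, and 2 and 1 after centring, against 2.01% of all genes higher in ApoE3 before centring and 7.46% after it. At 7 dpi, where TNC and STAB1 were higher in ApoE4, so were 4 of 10 fibroblast markers, 3 of 10 macrophage and microglia markers, 1 of 12 precursor markers, 1 of 9 pericyte markers and 0 of the astrocyte, oligodendrocyte and neuron markers, against 4.76% of all genes. Higher in ApoE3 at 7 dpi were 4 of 12 neuron markers and 0 of those other lists, against 3.78% of all genes. That of 8 of 12 oligodendrocyte markers, nearly all from MBP, was 127593 and 134683 at 7 dpi and 210745 and 292479 at 21 dpi, and that of 10 of 12 neuron markers, led by SNAP25, was 5164 and 3999 and then 8084 and 12005. Fibroblast markers summed to 825 and 1113 at 7 dpi and 76.7 and 65.6 at 21 dpi for all 10 of the list, and 8 of 10 were lower at 21 dpi in ApoE3 and 9 of 10 in ApoE4, with and without centring. MFAP5, the most abundant in ApoE3 at 21 dpi, and PI16 were higher there than at 7 dpi, and COL6A3 was the most abundant in ApoE4 at both time points and COL1A1 in ApoE3 at 7 dpi. Markers of macrophages and microglia summed to 7143 and 9354 and then 1308 and 2494 for 8 of 11, led by LYZ2 at 7 dpi and C1QA at 21 dpi. Pericyte and mural cell markers summed to 371 and 384 and then 338 and 424 for 8 of 10, led by RGS5 and then MCAM. In ApoE4, where both the pericyte and the astrocyte sum rose, the median centred ratio of 21 to 7 dpi was -0.63 and -0.14. In ApoE3, where both sums fell, it was -0.42 and -0.34.
Markers of tissues around the cord differed between the genotypes at 21 dpi, where 58.9% of all genes were called higher in ApoE4 and 2.01% higher in ApoE3, and 8.06% and 7.46% after centring. Where those transcripts came from was not tested. Of 9 listed skeletal muscle markers 9 were lower in ApoE3, with and without centring, with a sum of 35.1 against 737 FPKM, TNNT3 the most abundant and MYH4 at 0 in ApoE3. Of 9 listed Schwann cell markers, led by PMP22, 5 were higher in ApoE3 with and without centring, and 2 lower before it and 0 after it, with a sum of 3517 against 1665. Of 9 listed sensory ganglion markers 7 were higher in ApoE3 and 1 lower, TAC1, with 78.8 and 188 FPKM, with and without centring, TRPV1 and MRGPRD were at 0 in ApoE4, and CALCA, the most abundant, had 702 and 829.5 FPKM and was not called. At 7 dpi 3 of 7 muscle, 1 of 8 Schwann cell and 1 of 3 ganglion markers were higher in ApoE3 and 1, 2 and 0 lower. Of all genes 3.78% were called higher in ApoE3 and 4.76% higher in ApoE4 at that time. Centring left 0 Schwann cell markers higher in ApoE3 and the other counts as they were. Over the markers listed at both time points, the sums at 7 dpi were 66.6 in ApoE3 and 43.3 in ApoE4 for 7 muscle genes, 1087 and 1074 for 8 Schwann cell genes and 401 and 297 for 2 ganglion genes, and at 21 dpi 34.7 and 715, 3499 and 1665, and 781 and 1018. The 2 ganglion genes were CALCA and TAC1. The 7 ganglion markers called higher in ApoE3 at 21 dpi were not listed at 7 dpi, so they are not in these sums. The part of each of these markers in the values of the 10 genes was not tested.

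**Figure D5:**
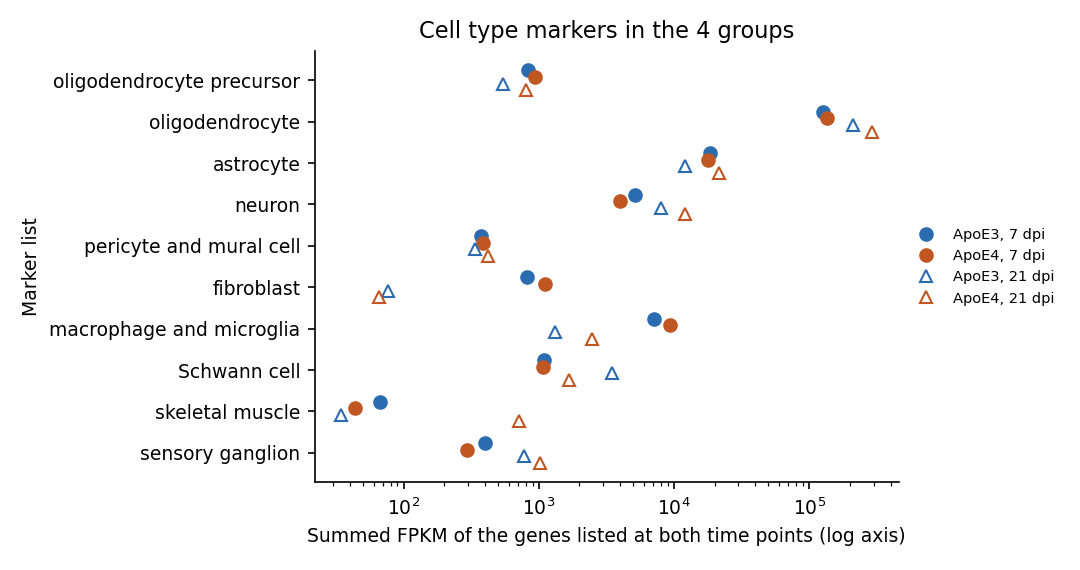
Summed FPKM (log axis) of the markers of each cell type that were listed at both time points, in ApoE3 (blue) and ApoE4 (orange) at 7 dpi (filled circles) and 21 dpi (open triangles). The fibroblast and macrophage sums lie far lower at 21 than at 7 dpi, and the muscle sum at 21 dpi is the widest gap between genotypes. The sensory ganglion sum holds CALCA and TAC1 alone, without the 7 ganglion markers called higher in ApoE3 at 21 dpi.

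The profile over the 4 groups differed among the genes themselves. By the Euclidean distance of log2(FPKM + 1) minus its own mean over the 4 groups, the nearest of the other genes to VCAN was TNR, and the reverse, at 0.28. CSPG5 and HAPLN1 were nearest to each other at 0.30, BCAN was nearest to CSPG5 at 0.37, and NCAN to TNR at 0.38. Among 10852 other genes averaging 1 FPKM or more, those closest to the median profile of the 9 were CDCA7 at 0.03, DGLUCY at 0.04, 1700109H08RIK at 0.06, and SEC14L1 and PFN1 at 0.06 each. With 4 groups many genes lie close to any profile, and a median over genes that moved in opposite directions describes few of them.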

How the data were processed

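RNA of lesion segments of 4 groups of male mice (human ApoE3 or ApoE4 targeted replacement, 7 or 21 dpi) was sequenced from TruSeq libraries. The authors removed reads at random so that all samples entered alignment with equal numbers, but by their methods 1 replicate, not named there, aligned less well than the rest, so aligned depth was not equal. The submitters' processing notes name STAR 2.5.4b, Bowtie2 2.1.10, SAMtools 0.1.7 and Cuffdiff 1.3.0. The genome build and annotation are not given in the sources used here. Each deposited value is an FPKM to which the authors had added 1, given once per gene for all mice of a group, and 1 was subtracted. Reads per gene are unknown, so no counting error is given. The table's columns with the authors' p-values, q-values, fold changes and log2 fold changes, and a second table of the genes they called, were not used.

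Log2 ratios used a pseudocount of 1 and a fold of 1.3, as in the study's methods. In each comparison 2 symbols that stood on 2 rows were left out, and 0 value columns were without a group. Changes over time were computed for 10876 genes listed at both time points. Transcript length is that of the longest protein-coding transcript in GENCODE vM21, matched by symbol for at least 94.6% of expressed genes. RefSeq genes and promoters are of GRCm38.p6, and gene positions were used only to see which genes are neighbours.

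The members and the lists, 8 of pathway genes and 10 of cell type markers, were chosen with earlier results of these data known. The text names the 10 members; the listed genes of each pathway list that passed the fold between genotypes, at most 4 by size, from which examples were taken; the most abundant gene of each marker list and those at 0; and the 5 genes nearest to the members' median profile. HAPLN4 and TNC came under this rule and their changes over time were added after the values were seen. PI16, TAC1 and TNXB were named later as exceptions within their lists. The promoters and the motifs were chosen after the values were seen. Alternatives were a pseudocount of 0.1, centring, centring on genes averaging 10 FPKM or more, a fold of 1.5 and a minimum mean FPKM of 1. Centring within 10 classes of transcript length, counts centred on genes averaging 10 FPKM or more, the shares of BCAN and the share of all genes with opposite signs at the 2 time points were added after the values were seen. Python 3.11.15, numpy 2.4.6, pandas 2.3.3 and matplotlib 3.10.9 were used, and the procedure was tested on simulated data.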

Additional observations from a re-analysis of the deposited data

Results flagged for a closer look

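The ratio of ApoE3 to ApoE4 lay above 0 at 7 dpi and below 0 at 21 dpi in 5 of the 9 genes listed at both time points, with 1 value per group, and in 49.0% of all genes listed at both. The difference between the time points was not tested. The log2 ratio at 7 dpi minus that at 21 dpi was 0.9999 for PTPRZ1, 0.73 for CSPG5, 0.69 for HAPLN1, 0.53 for TNR and 0.31 for ACAN. The ratios at 7 dpi were small, from 0.0031 for TNR to 0.17 for HAPLN1, and none was called. The median of all genes differs between the time points too, at 0.0018 and -0.42. Relative to it, ACAN lay above 0 at both time points, with 0.01 and 0.13, while the other 4 still had opposite signs, PTPRZ1 with 0.04 and -0.54, CSPG5 with 0.06 and -0.24, HAPLN1 with 0.17 and -0.10, and TNR with 0.0013 and -0.10. Of all genes 26.1% had this pattern after centring. Of the 4 genes PTPRZ1 at 21 dpi was past the fold. The signs at 7 dpi depend on the centring: relative to genes of like length PTPRZ1 had -0.02 and -0.50 and TNR -0.06 and -0.07, so that 2 of 9 kept the pattern, with 25.9% of all genes, and centring on genes averaging 10 FPKM or more gave TNR -0.0025 at 7 dpi.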

How the results depend on the processing

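The counts of 0 genes called at 7 dpi, and of 0 called higher in ApoE3 at 21 dpi, were the same with a pseudocount of 0.1, centring, centring on genes averaging 10 FPKM or more, a fold of 1.5, a minimum mean FPKM of 1 and centring within 10 classes of transcript length. Some of these settings could not have changed them. A fold of 1.5 is stricter and cannot add a call to 0. The lowest level, 2.39 FPKM for HAPLN1 in ApoE4 at 7 dpi, is above 1, so the minimum removed no member. Centring at 7 dpi moved each ratio by only 0.0018. The 6 genes called higher in ApoE4 at 21 dpi came to 1, PTPRZ1, with centring, with centring on genes averaging 10 FPKM or more and with centring within length classes (7.55% of all genes), and to 3 with a fold of 1.5 (23.0% of all genes). The 3 genes lower at 21 dpi in ApoE4 came to 5 on each of the 3 centred scales, and the 1 gene higher in ApoE3 came to 2 within length classes. The other alternatives kept each count within 1.5 times.

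The share of BCAN in the 4 lecticans depends on what it is a share of. Out of 9 genes it was 43.0% in ApoE3 and 44.6% in ApoE4 at 7 dpi and 74.3% and 69.7% at 21 dpi. With FPKM multiplied by transcript length it was 42.9% and 41.7%, then 81.4% and 79.0%. It was higher at 21 than at 7 dpi on each scale.

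Of 37 single ratios, 35 moved by under 0.1 with a pseudocount of 0.1, and 0 changed sign. With centring 4 changed sign, and 5 with centring on genes averaging 10 FPKM or more, none of them past the fold before. No paired analysis was possible because each group has 1 value, and for the same reason no replicate could be left out. Depth per gene is unknown, and low genes such as HAPLN1 are the least certain.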
